A study of Mus musculus with 6 samples.

Results

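The library labelled adult cardiomyocytes was set against the library of undifferentiated induced pluripotent stem (iPS) cells, 1 Affymetrix array a side, over all genes bright enough to compare. Of 22180 mouse genes with a value, 13760 were kept because the higher of their values in these libraries was at or above 5.20, the median of the whole table. The other 8420 were below it in both. Just inside that limit were Gad1, at 5.195 in the adult and 4.696 in the iPS library, and Ush1c, at 4.885 and 5.196. Just outside were Wap, at 5.195 and 5.073, and F13a1, at 5.192 and 4.706. Values are log2 signals, so a difference of 1 is a 2-fold difference.

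The study profiled 6 mouse RNA libraries, each alone in its group and all labelled strain DBA/2J and female. The iPS cells were kept undifferentiated on feeder cells with 15% serum and the cytokine LIF, and the adult library is labelled as cardiomyocytes from the hearts of adult mice. The age of the mice, the number pooled, how heart cells were isolated and whether they were cultured are not stated in the labels. The other libraries, used here for levels only, were neonatal cardiomyocytes and iPS cells at day 7 of cardiac differentiation. Those iPS cells had spent 5 days as embryoid bodies and were then plated with 1% DMSO, 100 ng/ml NRG-1 (neuregulin 1) or both. All differences between heart or day 7 libraries and iPS cells share the same iPS library.

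A heart is built from several cell types. Cardiomyocytes contract through sarcomeres of myosin, actin, troponin and titin and burn fatty acids in abundant mitochondria. Fibroblasts make the collagen matrix, endothelial cells line vessels and chambers, smooth muscle cells and pericytes wrap vessels, and macrophages clear debris. iPS cells are body cells reprogrammed to a pluripotent state that is held by transcription factors such as NANOG and SOX2, and they divide rapidly as epithelium-like colonies.

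The adult library went against its labels in 2 ways. The Y-linked genes Eif2s3y, Kdm5d and Uty were 4.88, 3.94 and 3.49 higher than in the iPS library, in a sample labelled female. The neonatal library, also labelled female, had these genes at 6.20, 6.17 and 7.14, against at most 4.06 in the other 4 libraries. Of 7 sex-linked genes measured, these 3 were higher in the adult than in the iPS library and 2 others were at least 2-fold lower. Cardiomyocyte genes of the adult library were, for the most part, at the level of iPS cells. The library is therefore called the adult library here, without a cell type.

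The 28 genes of the contractile apparatus of cardiomyocytes had a median difference of -0.00, against -0.02 over all genes. A 2-fold higher value was found for 3 of them, a 2-fold lower value for 2, and 7 were below the filter in both libraries. Across all 13760 genes, 13.1% were at least 2-fold higher and 14.1% at least 2-fold lower. Myh6, the main myosin heavy chain of the adult mouse heart, stood at 5.05 in the adult library, 5.82 in iPS cells and 6.47 in the neonatal library. It was 7.04, 5.93 and 7.03 in the day 7 libraries with DMSO, NRG-1 and both, so the adult library had the lowest value of the 6. Myl2, the ventricular myosin light chain, was 5.33 in the adult library, 4.94 in iPS cells, 5.55 in the neonatal library and 5.41 to 5.70 at day 7. Ttn, the giant spring protein titin, stood at 4.76 and 5.14 and Myom2, an M-band protein, at 4.25 and 3.96 in the adult and iPS libraries, all below the filter.

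Of the 3 contractile genes that were higher, Tpm1 and Cryab are also known from many other cell types. Tpm1, a tropomyosin of many cell types, was 10.99 in the adult and 8.76 in the iPS library. Cryab, a small heat shock protein, was 8.40 and 6.31. Tnnt2, cardiac troponin T, was 8.22 against 6.35, a difference of 1.87, and stood at 9.76 in the neonatal library and 8.50 to 9.32 at day 7. The 2 lower genes were Des, the intermediate filament desmin (-1.29), and Trim63, a muscle ubiquitin ligase (-1.23). Over the whole contractile list the mean level was 5.64 in the adult library, 5.55 in iPS cells, 6.21 in the neonatal library and 6.34 to 6.62 at day 7. The adult library was the lowest of the 6 for 12 of the 28 genes and the highest for 2.

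**Figure D1:**
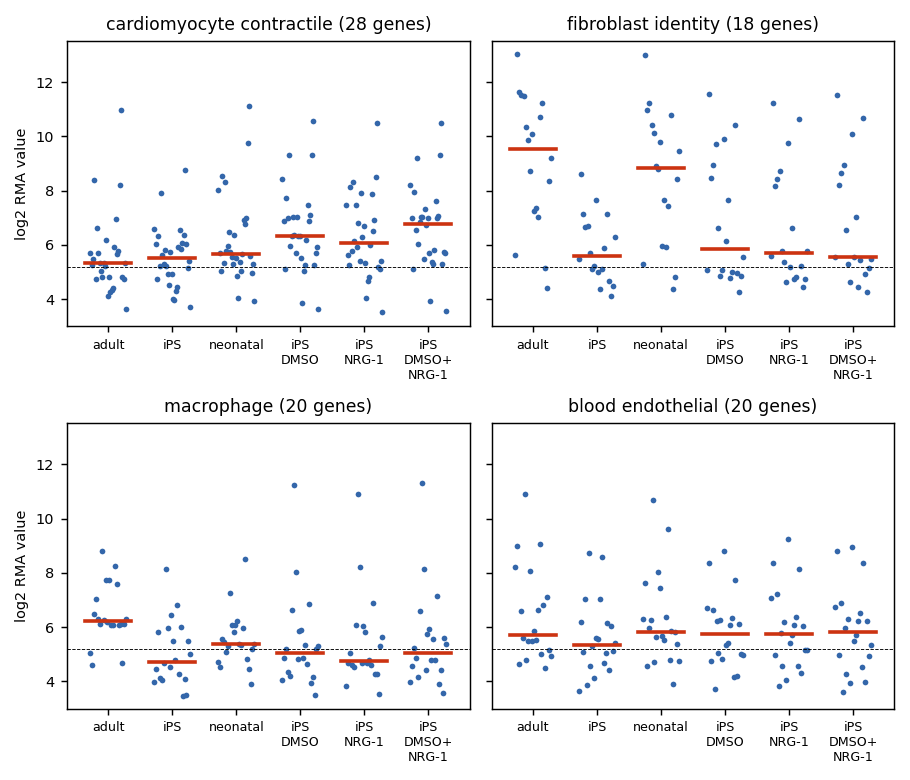
Log2 RMA values of every measured member of 4 cell type lists in the 6 libraries, 1 point a gene, with the list median as a red bar and the filter of 5.20 as a dashed line. Contractile genes in the adult library lie where they lie in iPS cells, with a mean of 5.64 against 5.55, whereas fibroblast genes are far above (9.06 against 5.85) and macrophage genes are highest in the adult library (6.48 against 5.05).

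Genes of cardiomyocyte membranes and energy supply were also mostly at the iPS level, with a median of 0.23 over 25 genes, 4 higher and 2 lower. Ryr2, the calcium release channel, was 4.96 and 5.21 in the adult and iPS libraries, Ckm, muscle creatine kinase, 5.37 and 5.08, and Mb, myoglobin, 5.39 and 5.24. Nppa, the atrial natriuretic peptide, was 5.06 and 5.29, while the neonatal library had 10.31. Atp2a2, the calcium pump of the sarcoplasmic reticulum, was high in both at 10.75 and 10.69. The higher genes were Fhl2, a LIM protein of muscle and other cells (4.03), Hspb7, a small heat shock protein (3.02), Slc8a1, the sodium-calcium exchanger (1.86), and Cacna1c, the L-type calcium channel (1.15). Fhl2 was nearly level across the 5 libraries other than undifferentiated iPS cells, at 10.62 in the adult, 10.41 in the neonatal and 10.45 to 10.54 in the day 7 libraries, against 6.59 in iPS cells. Cox7a1, the muscle form of a cytochrome oxidase subunit, differed by -2.58 from iPS cells, and Srl, sarcalumenin, by -1.90.

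Fibroblast genes were far higher in the adult library than in iPS cells, as they were in the neonatal library. The list mean was 9.06 in the adult, 5.85 in the iPS, 8.52 in the neonatal and 6.66 to 6.88 in the day 7 libraries. The median difference over 18 genes that mark fibroblasts was 3.69, and 15 of them were higher by 2-fold or more, 14 by 4-fold or more, and 0 lower. Leaving out genes that another list holds too, the median was 2.66. Col1a1, a chain of collagen I, was 13.05 in the adult library, 8.61 in iPS cells, 12.99 in the neonatal library and 11.23 to 11.56 at day 7. Pdgfra, the platelet-derived growth factor receptor of fibroblasts, was 11.25 and 7.13 in the adult and iPS libraries, and the neonatal and day 7 libraries had 10.43 to 10.78. Tcf21, a transcription factor of cardiac fibroblasts, was 8.36 in the adult and 8.42 in the neonatal library, against 4.48 in iPS cells and 4.76 to 5.15 at day 7. Tcf21 thus separated both heart libraries from all 4 iPS-derived ones, which Pdgfra did not. Clec3b, Scara5 and Pi16, known from fibroblasts of the adventitia, differed by 0.15, 0.30 and 0.48, and the latter pair was below the filter. The iPS cells were grown on feeder cells, whose share of the iPS values for Col1a1 and similar genes was not tested.

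Genes of activated fibroblasts and myofibroblasts were higher as well, 16 of 20, with a median of 2.41 and 0 lower. Postn, the matricellular protein periostin, was 11.97 in the adult and 7.27 in the iPS library, with 10.48 in the neonatal and 8.37 to 9.50 in the day 7 libraries. Acta2, smooth muscle actin, reached 13.60 against 11.08, and Tagln 11.81 against 8.33. Fap, fibroblast activation protein, differed by 3.77, Cthrc1 by 3.13 and Meox1, a transcription factor of activated fibroblasts, by 2.12. The list was not uniform. Comp and Cilp, known from scarring and cartilage, were below the filter, and Sfrp2, a secreted Wnt inhibitor, was 5.04 against 5.89.

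**Figure D2:**
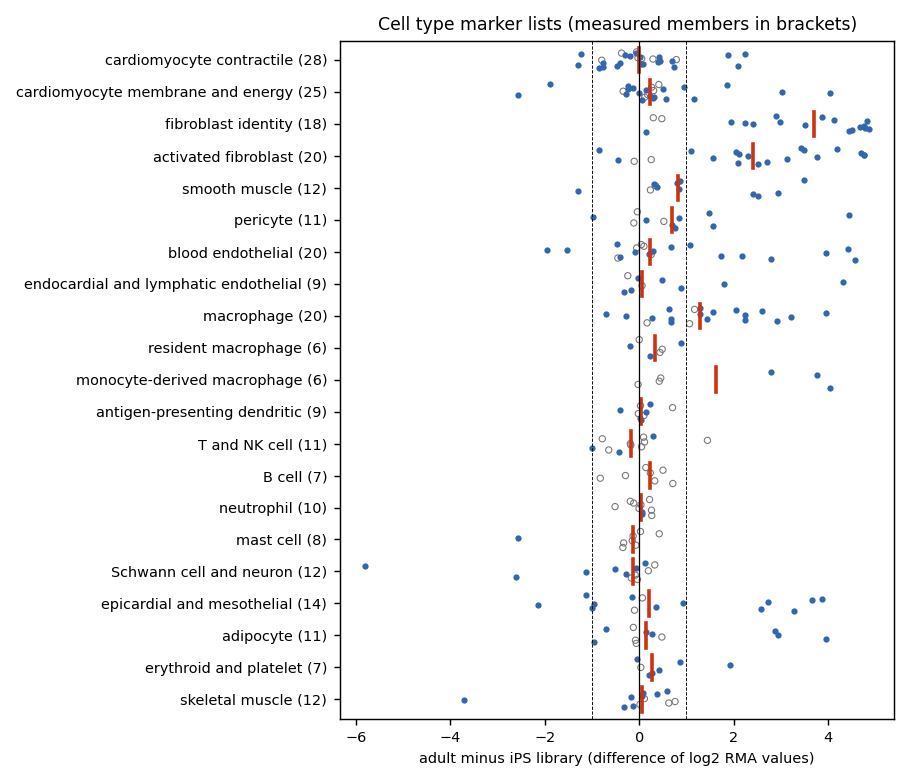
Difference of log2 RMA values, adult minus iPS library, for every measured gene of 21 cell type lists. Filled points passed the filter, open points did not, red bars are list medians and dashed lines mark 2-fold. Both fibroblast lists lie to the right (medians 3.69 and 2.41), the macrophage list follows at 1.29, and the contractile list is centred at -0.00.

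Smooth muscle and pericyte lists went partly with these genes. In the smooth muscle list 4 of 12 genes were higher: Tagln, Cnn1 (calponin, 10.16 against 7.23), Acta2 and Actg2 (8.43 against 6.03). Myh11, the myosin heavy chain of differentiated smooth muscle, was 6.19 and 5.80, and Myocd, its transcriptional co-activator, 5.44 and 5.14. Of the 11 pericyte genes 3 were higher, namely Pdgfrb (4.44), Anpep (1.56) and Rgs5 (1.47). Pdgfrb, a receptor shared by pericytes and fibroblasts, was 10.44 in the adult and 10.03 in the neonatal library, against 5.72 to 6.46 in the iPS-derived libraries. Cspg4 and Notch3 differed by 0.69 and -0.99, and Higd1b and Vtn were below the filter.

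Endothelial genes were split. The list median was 0.23, with 7 of 20 blood endothelial genes higher and 2 lower. Cdh5, the junction protein VE-cadherin, was 8.99 in the adult library and 6.20 in iPS cells, Ptprb, a vascular phosphatase, 9.08 and 4.66, and Eng, endoglin, 10.92 and 8.74. Cd36, a fatty acid receptor, was 8.22 and 3.65, and Fabp4, a fatty acid carrier, 8.06 and 4.11. Both are also known from macrophages and fat cells. Vwf, Cldn5, Tie1, Erg, Flt1 and Kdr, also endothelial markers, differed by -0.48, -0.45, 0.04, 0.25, -0.10 and 0.30. Pecam1, an adhesion protein that mouse pluripotent cells are known to carry too, was 6.63 against 8.58 in iPS cells and 6.09 to 6.38 in the remaining libraries. Of the 9 endocardial and lymphatic genes 2 were higher, Npr3, the natriuretic peptide clearance receptor (9.64 against 5.33), and Nfatc1 (7.24 against 5.44). Prox1 and Mmrn1, lymphatic genes, were below the filter.

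Macrophage genes were higher in 11 of 20 cases and lower in 0, with a median of 1.29. Lyz2, lysozyme, was 8.24 in the adult library, 4.29 in iPS cells, 5.98 in the neonatal library and 4.61 to 4.80 at day 7. C1qb, a subunit of complement C1q, was 7.03 in the adult library against 4.12 to 5.45 in the other 5, and Ctss, cathepsin S, 7.75 against 4.40 to 5.80. The adult library was the highest of the 6 for 13 of the 20 genes. Csf1r, Cx3cr1, Laptm5 and Cd68 differed by 0.28, -0.28, -0.71 and 0.68, and Ptprc, the pan-leukocyte marker CD45, was below the filter at 4.68 and 3.51. None of the 6 resident macrophage genes was 2-fold apart, the largest difference being 0.88 for Lyve1. In the monocyte-derived list Arg1 (arginase 1, 9.54 against 5.51), Mmp12 (macrophage elastase, 8.17 against 4.40) and Plac8 (8.45 against 5.65) were higher, while Ccr2, Ly6c2 and Chil3 were below the filter. In a bulk RNA sample, fewer cells of a type and less RNA per cell cannot be told apart.

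Most lymphocyte and granulocyte genes were below the filter, namely 8 of 11 T and NK cell genes, all 7 B cell genes and 8 of 10 neutrophil genes, so few could be compared. Of the 3 T and NK cell, 2 neutrophil and 5 dendritic cell genes that passed, 0 were 2-fold apart in either direction. Il7r, a lymphocyte cytokine receptor below the filter, was 4.65 against 3.21. Mast cell genes were below it too apart from Kit, the receptor of stem cell factor, which was 6.30 in the adult library and 8.88 in iPS cells. In the nerve list Stmn2, a neuronal tubulin-binding protein, was 5.47 against 11.28, Erbb3, a neuregulin receptor, 5.21 against 7.83, and Prph, peripherin, 5.25 against 6.37. Sox10 and S100b, markers of Schwann cells, differed by -0.06 and 0.19.

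Epicardial and mesothelial genes divided into a higher and a lower set. Tcf21, Tbx18 (3.67), Aldh1a2 (3.27), Sema3d (2.72) and Clu (2.59) were higher, whereas Krt8 (-2.15), Wt1 (-1.14) and Gpm6a (4.78 against 5.78) were lower, out of 14 genes. Wt1, a transcription factor of the epicardium, was 6.87 in the adult, 8.46 in the neonatal and 6.94 to 7.08 in the day 7 libraries. Among 11 fat cell genes only Fabp4, Lpl (2.94) and Pparg (2.87) were higher, and Adipoq and Cidec, which mark mature fat cells, were below the filter. Pf4, platelet factor 4, was higher at 5.75 against 3.83, and the other 6 measured erythroid and platelet genes were less than 2-fold apart. In the skeletal muscle list 1 of 12 genes was 2-fold apart, Mylpf, at 4.46 against 8.17 in iPS cells.

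**Figure D3:**
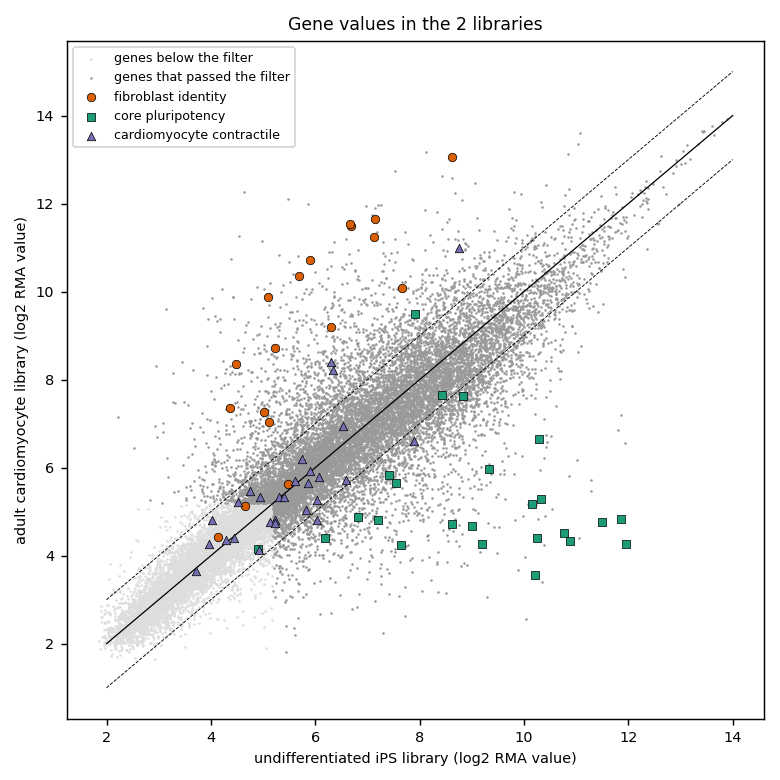
Log2 RMA value of every gene in the iPS library (horizontal) and the adult library (vertical). The solid line marks equal values and the dashed lines 2-fold. Fibroblast genes lie above the diagonal, core pluripotency genes below it, apart from Myc, and most contractile genes on it.

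Over the 13760 genes, 1802 exceeded the iPS value by 2-fold or more and 1940 lay below it by as much, and 4-fold was reached by 633 (4.6%) upward and 494 (3.59%) downward. With 1 library a side there is no replicate spread and no test. As a guide to error, 1105 olfactory receptor genes, which are mostly silent outside the nose, had differences from -0.68 to 0.62 between their 5th and 95th percentiles. Without the filter, 20 of them were at least 2-fold apart and 2 at least 4-fold. Only 52 reached the filter, so this guide describes low signals more than the genes counted. For 729 pairs of probe sets that name the same gene, the differences scattered with an SD of 0.67, which mixes noise with transcripts that truly differ. Of the 254 pairs with a probe set at least 2-fold apart, 38 had opposite signs, so single differences near 2-fold are weakly held by this array. A shift to equal medians of 9 housekeeping genes would add 0.88 to every difference and move the median of all genes from -0.02 to 0.86. The 0.88 is the gap between the housekeeping medians of the 2 libraries. Gene by gene, these 9 had a median difference of -0.31, which the shift turns into 0.57. The shift thus goes beyond their own median difference. All differences given are as deposited, and those between -0.88 and 0 change sign under that shift.

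The genes with the largest differences upward were led by matrix and surface proteins. Ogn, the small proteoglycan osteoglycin, was 12.26 in the adult library and 4.64 in iPS cells, with 11.46 in the neonatal and 5.82 to 7.10 in the day 7 libraries. Efemp1, a fibulin, was 11.26 and 4.54, Lrrc32, which presents latent TGF-beta, 12.10 and 5.49, and Frzb, a secreted Wnt inhibitor, 11.15 and 4.98. Esm1, a proteoglycan of activated endothelium, was 10.74 in the adult and 11.31 in the neonatal library and 4.12 to 4.55 in the iPS-derived libraries. Cd200, an immune-inhibitory surface protein, was 9.85 in the adult library against 4.03 to 5.24 in the other 5. Asb5, Il6, Lilrb4a, a leukocyte inhibitory receptor, and Ccl6, a macrophage chemokine, were also at least 2-fold above every other library.

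Within these 25 genes the adult library was the highest of the 6 in 17, and the iPS library the lowest in 22. The genes were picked for a high adult and a low iPS value, so the choice itself favours such ranks. The neonatal library was at least 2-fold above iPS cells for all 25, a comparison that shares the iPS library. Sprr1a, a gene of cornified epithelium and stressed muscle, was higher at day 7 (12.34 to 12.80) than in the adult library (9.83). Ankrd1, a stress-responsive muscle ankyrin repeat protein, was 12.73 in the adult, 12.85 in the neonatal and 7.53 in the iPS library. Gucy1b1, a subunit of the nitric oxide receptor, Piezo2, a mechanically gated channel, and Edn1, the peptide endothelin 1, were 5.53, 5.24 and 5.04 higher than in iPS cells.

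**Figure D4:**
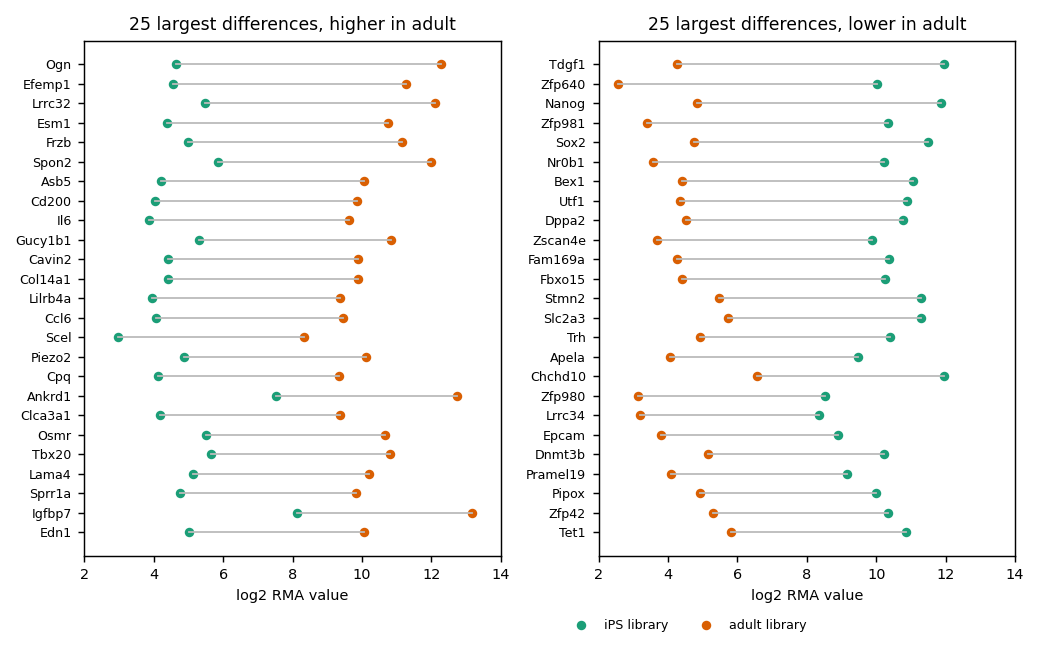
Log2 RMA values in the iPS library (green) and the adult library (orange) for the 25 genes with the largest difference in each direction. The differences span 5.04 to 7.62 upward and 5.04 to 7.70 downward.

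Many collagen genes, and all measured genes that process collagen, were higher. The 28 collagen chains had a median of 1.28, with 16 higher and 1 lower. Col14a1 (5.45), Col3a1 (4.87), Col8a1 (4.85), Col5a2 (4.64), Col1a2 (4.50) and Col1a1 (4.44) led, and Col18a1, a basement membrane collagen, was lower (-1.33). The cartilage chains Col2a1, Col9a2, Col9a3 and Col11a2 differed by -0.02, 0.14, -0.22 and 0.12. All 15 measured genes of collagen hydroxylation, folding and crosslinking were higher, from Plod2 (1.18) to Lox (4.76), and the collagen chaperone Serpinh1 differed by 2.09.

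Other matrix classes followed. Of 14 elastic fibre genes 10 were higher, with Efemp1 (6.71), Mfap5 (4.83), Ltbp2 (4.77) and Fbln2 (4.74) in front, whereas Eln, elastin itself, was 5.75 and 5.10. Of 15 matricellular genes 12 were higher, led by Spon2 (6.13), Postn (4.70) and Thbs1 (4.19). Of 11 leucine-rich proteoglycans 6 were higher, Ogn, Dcn (decorin, 4.79) and Bgn (biglycan, 3.96) among them. Matrix proteases and their inhibitors had a median of 3.12 and 15 of 20 higher. Both sides of this balance were included, with the protease Adamts5 at 4.84 and Mmp14 at 3.31, and the inhibitors Timp3 at 3.99, Timp2 at 3.49 and Timp1 at 3.10.

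Basement membrane genes showed an exchange of laminin chains. Lama4 was 10.21 in the adult library and 5.14 in iPS cells, and Lama2 9.21 and 4.96. Lama1, a chain of the embryonic basement membrane, was 5.06 and 8.76, and Lama5 6.11 and 7.61. The integrin subunit Itga6 differed by -1.73, and Itgb5, Itga1 and Itga5 were 2.36, 2.33 and 2.09 higher. In all, 17 of 25 genes of this list were higher and 4 lower.

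Adhesion genes divided between epithelial and mesenchymal types. The median over 21 epithelial genes was -1.22, with 13 lower and 0 higher. Epcam, an epithelial adhesion molecule, was 3.79 in the adult and 4.50 in the neonatal library, against 8.91 in iPS cells and 9.26 to 9.81 at day 7. Cdh1, E-cadherin, was 4.82 and 8.44 in the adult and iPS libraries, and Cldn6, a claudin of embryonic epithelia, 4.91 and 7.96. Of 11 mesenchymal adhesion genes 8 were higher and 1 lower. Vcam1, a leukocyte adhesion receptor, was 10.52 against 6.22, Cdh2, N-cadherin, 11.19 against 7.52, and Cdh11 9.52 against 6.88, while Icam1 was 7.00 against 8.67. The caveola genes, which shape membrane pits, were higher in 7 of 9 cases, with Cavin2 at 5.47 and Ehd2 at 4.27.

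Ligands of several growth factor families were higher, 15 of 25, with 1 lower. Tgfb3, a transforming growth factor, was 9.43 in the adult library, 5.09 in iPS cells, 9.27 in the neonatal library and 6.01 to 6.46 at day 7. Inhba, the activin A subunit, was 10.07 against 5.94 and Pdgfd 8.93 against 4.81. Igf1, Hgf and Nrg1 were 2.43, 2.28 and 1.99 higher, and Bmp4 differed by -1.30. Igfbp7, a secreted binding protein of insulin-like growth factors, was 13.16 against 8.12, and Igfbp2 had the opposite difference, 6.25 against 9.97. In the Wnt pathway 5 of 25 genes were higher, Frzb, Dkk2 (2.58) and Sfrp1 (1.09) being inhibitors and Fzd1 (1.92) and Fzd2 (1.29) receptors, while Axin2, a common target, was 6.04 against 6.50.

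Of 15 cytokine and cytokine receptor genes 5 were higher and 0 lower, 6 were below the filter, and the median was 0.75. Il6 was 9.63 against 3.86, with 6.74 in the neonatal and 4.65 to 5.48 in the day 7 libraries. Osmr, the oncostatin M receptor, was 10.67 against 5.50, and Csf1, the growth factor of macrophages, 11.14 against 6.37. Il1b and Il18 were below the filter, and Tnf differed by 0.47. Of 20 chemokine genes 10 were higher and 0 lower, led by Ccl6 (5.38), Ccl9 (4.70), Cxcl12 (4.13), Ccl2 (3.15) and Ccl7 (3.06). Ccl2 was 9.27 in the adult library, 7.42 in the neonatal library and 6.06 to 6.58 in the 4 iPS-derived libraries.

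Other immune genes were less uniform. Ptgs2, the inducible cyclooxygenase, was 11.74 against 7.10, and Ptgis, prostacyclin synthase, 9.92 against 7.07, out of 3 higher and 1 lower among 12 prostaglandin and leukotriene genes. B2m, the light chain of MHC class I, was 12.48 against 9.07 and the interferon-induced GTPase Irgm1 7.86 against 4.62, while Tap1 and Irf1 differed by -0.02 and -0.05. Of 10 complement genes 8 were below the filter, and C3ar1 (2.00) and Serping1 (1.93) were higher. Lysosomal genes were higher in 8 of 16 cases, with Lipa at 3.01 and the protease Ctsb at 1.99, and Neu1 differed by -0.53.

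Immediate early genes, which answer stress and growth signals within minutes, were higher in 12 of 15 cases and lower in 1. Egr2 was 9.35 against 5.98, Ier3 10.73 against 7.86, Dusp1 10.38 against 8.26 and Fos 9.02 against 7.00. Socs3, a feedback inhibitor induced by LIF, was 5.96 against 7.30. Hspa1a and Hspa1b, near-identical heat shock genes whose probes cannot be fully told apart, differed by 1.35 and 2.03. The mean level of the list was 8.82 in the adult library, 7.27 in iPS cells and 9.39 at day 7 with DMSO, and the neonatal library lay between the adult and iPS means.

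Cardiac transcription factors were higher in 8 of 19 cases and lower in 0. Tbx20 was 10.81 against 5.66, Tbx18 8.60 against 4.93, Hand2 7.49 against 5.25 and Gata4 8.14 against 6.04. These factors are also known from cardiac fibroblasts and their epicardial precursors. Nkx2-5, Tbx5, Irx4 and Isl1, factors tied more closely to cardiomyocytes and their progenitors, differed by 0.51, 0.56, -0.05 and -0.16. Mesenchymal factors were higher in 11 of 20 cases, with Prrx1 (3.58), Osr1 (3.45) and Snai2 (2.69) leading. Of 36 HOX genes, which set position along the body axis, 24 were below the filter and 3 were lower, Hoxb1 most (-1.90).

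Genes of pluripotency were lower in the adult library in 21 of 24 cases, 16 of them by at least 4-fold, with a median of -3.76. Nanog was 4.83 in the adult library and 11.86 in iPS cells, and 4.29 to 4.60 in all others. Tdgf1, the Nodal co-receptor Cripto, was 4.25 and 11.95, and Nr0b1 3.55 and 10.21. Sox2 was 4.76 and 11.49, with 6.70 to 7.89 at day 7. Pou5f1, which encodes OCT4, was 5.65 and 7.55, a smaller difference (-1.89) than that of its partners. Klf4 differed by -0.78, and Myc was the only gene of the list that was higher, at 9.50 against 7.91.

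Related programs of early embryonic cells were lower too. Of 8 enzymes that write or remove DNA methylation 7 were lower, Dnmt3b (-5.09), Tet1 (-5.04) and Dnmt3l (-3.39) among them, and Tet3 was 1.15 higher. Of 13 germline genes 11 were lower, such as Dazl (3.19 against 8.05) and Mael (3.63 against 7.85). Nodal and FGF signalling genes were lower in 8 of 16 cases, among them Fgf4 (-3.96), Lefty2 (-3.53), Lefty1 (-3.21) and Nodal (-2.70). Zscan4c and Zscan4d, which mark a 2-cell-like state, differed by -3.60 and -2.45, but their near-identical copies may share probes. In the list around LIN28, Lin28a (-3.52), Trim71 (-2.82) and Igf2bp3 (-2.31) were lower, and the splicing factors Mbnl1 (2.55), Mbnl2 (1.95) and Celf2 (1.80) were higher. The splicing factors Esrp1 and Esrp2, both known from epithelia, went apart, at -2.20 and 1.08.

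**Figure D5:**
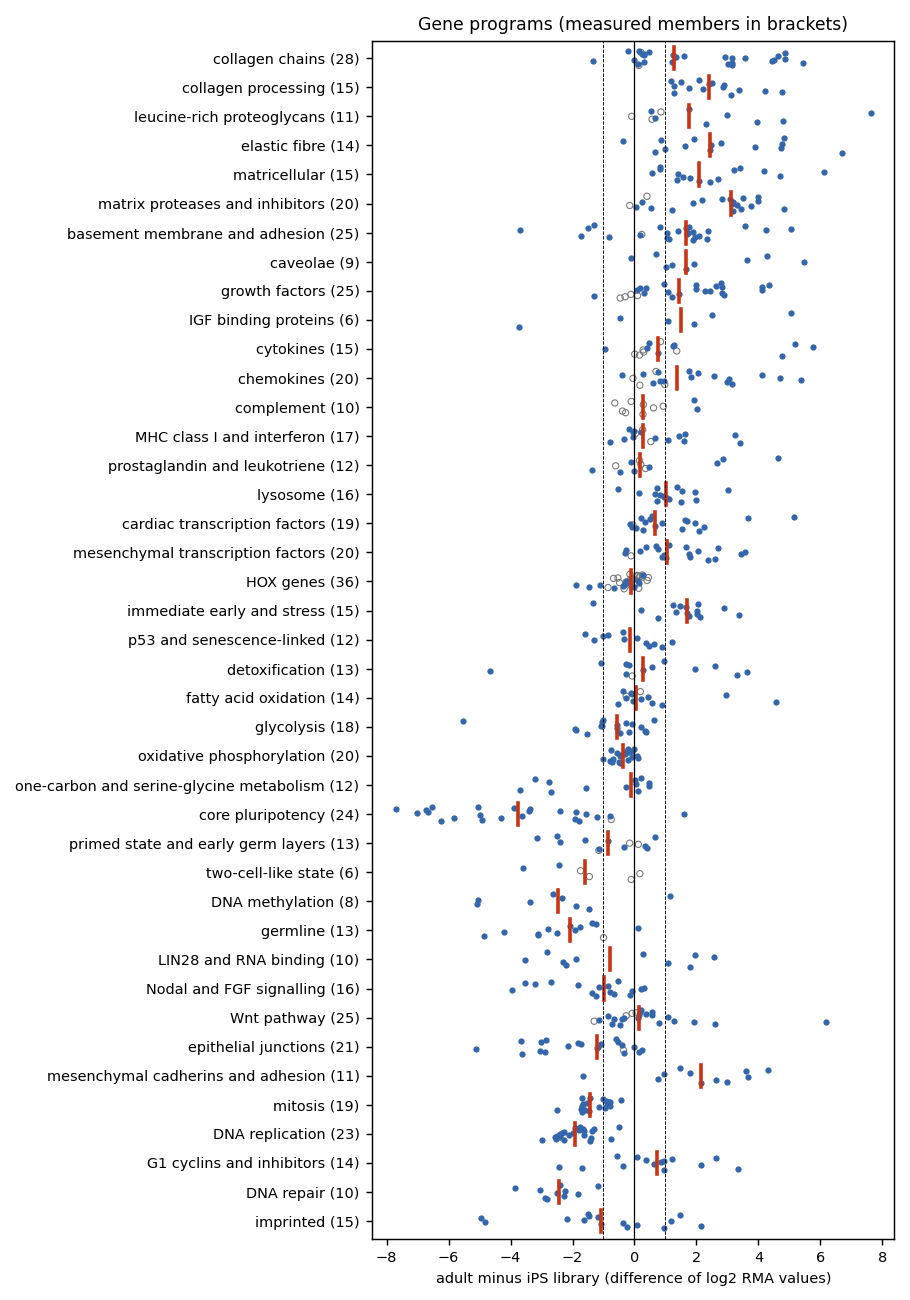
Difference of log2 RMA values, adult minus iPS library, for every measured gene of the matrix, signalling, immune, transcription, pluripotency, cell cycle and metabolism lists. Filled points passed the filter, open points did not, red bars are list medians and dashed lines mark 2-fold. Matrix lists lie to the right and pluripotency, DNA replication (median -1.92) and DNA repair lists (median -2.45) to the left.

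Genes of DNA replication, DNA repair and mitosis were lower in the adult library. The median over 23 replication genes was -1.92 and 21 of them were lower, the licensing factor Cdt1 at 7.22 against 10.20. All 10 repair genes were lower, with a median of -2.45, Msh6 at 6.59 against 10.45. Mitotic genes had a median of -1.45, with 12 of 19 lower. Mki67, the proliferation marker, was 9.66 in the adult library, 10.46 in iPS cells, 10.29 in the neonatal library and 8.40 to 8.76 at day 7. The mean of the mitosis list was 8.41 in the adult library, above the 7.52 to 7.86 of the day 7 libraries and below the 9.28 of the neonatal library. Among genes of the G1 phase, Ccnd2 (cyclin D2, 3.33), Cdkn2c (2.65) and Cdk6 (2.16) were higher and Ccne1 (cyclin E1, -2.44) and Ccnd3 (-1.71) lower.

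Among metabolic lists, glycolysis and serine and glycine metabolism held lower genes, and oxidative phosphorylation and fatty acid oxidation held few genes 2-fold apart. Oxidative phosphorylation had a median of -0.38 over 20 genes, 1 of them lower (Cyc1, -1.01), and the median becomes 0.50 under the housekeeping shift. Fatty acid oxidation had a median of 0.06, with Cd36 and Lpl higher, whereas the mitochondrial enzymes Acadm, Cpt2 and Hadha differed by -0.53, 0.20 and 0.42. Ppargc1a, a driver of mitochondrial genes in the heart, was below the filter. Of 18 glycolysis genes 8 were lower and 0 higher, with a median of -0.57 that turns positive under the housekeeping shift. Slc2a3, a glucose transporter of the early embryo, was 5.73 against 11.28, Pdk1 4.61 against 6.52 and Ldhb 6.58 against 8.47. In serine and glycine metabolism 5 of 12 genes were lower and 0 higher, namely Gldc (-3.69), Slc7a3 (-3.21), Shmt1 (-2.75), Amt (-2.68) and Mthfd1 (-1.57), while the median was -0.12 and turns positive under the housekeeping shift. Gsta4, a glutathione transferase, was 7.19 in the adult library against 11.86 in iPS cells, and Gpx8 and Cyp1b1 were 3.65 and 3.31 higher.

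Imprinted genes, expressed from 1 parental copy, differed in both directions, 3 higher and 8 lower of 15. Peg3 was 6.85 in the adult library, 11.81 in iPS cells, 10.55 in the neonatal library and 12.48 to 12.68 at day 7, so the adult library was the lowest of the 6. Mest was 6.18 against 11.01. Grb10, an adaptor that restrains insulin signalling, was 10.18 against 8.05, and Igf2 was 6.59 against 6.51.

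MicroRNA hairpins were measured by 478 genes, of which 159 passed the filter. A 2-fold difference was reached by 18 upward and 17 downward, and a 4-fold difference by 7 each way. These shares were near those of all genes that passed, 13.1% and 14.1% at 2-fold and 4.6% and 3.59% at 4-fold. The array reads the hairpin or its host transcript, not the mature RNA. A microRNA finds its targets mainly through its seed, bases 2 to 8 of the mature strand. Mature sequences from RefSeq (GRCm38.p6) are given for 7 hairpins that were at least 4-fold apart, so that their seeds, in capitals, can be compared, 5′ to 3′. These 7 were chosen after their values were seen.
miR-290a-3p: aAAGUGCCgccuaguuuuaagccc
miR-18b-5p: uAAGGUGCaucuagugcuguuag
miR-20a-5p: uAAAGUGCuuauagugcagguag
miR-19a-3p: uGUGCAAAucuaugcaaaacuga
miR-99a-5p: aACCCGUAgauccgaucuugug
let-7c-5p: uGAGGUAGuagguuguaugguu
miR-218-5p: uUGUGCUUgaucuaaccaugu

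The 4 hairpins at the head of that group were lower in the adult library. Positions given for the hairpins shown are those of the mature strand printed, while the values are those of the hairpin genes. Mir290a, of the embryonic stem cell cluster (chr7:3218674-3218697, plus strand), was 3.06 against 9.28 in iPS cells and 2.88 to 3.84 in the other 4 libraries. It was the only 1 of 6 measured hairpins of embryonic stem cell microRNAs that passed the filter. The other 5 were below it in both libraries, and the median over the 6 was -0.22. Mir18b (chrX:52742381-52742403, minus strand) was 2.79 against 6.71. Mir20a and Mir19a, members of the Mir17 cluster (chr14:115044183-115044205 and chr14:115044048-115044070, plus strand), differed by -2.15 and -2.44. The 7 seeds all differ, and the seeds of miR-290a-3p and miR-20a-5p share a run of 6 bases.

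The other 3 hairpins shown were higher. Mir99a (chr16:77598940-77598961, plus strand) was 6.13 against 4.02 and its neighbour Mirlet7c-1 (chr16:77599672-77599693, plus strand) 5.27 against 2.83. Mir218-1 (chr5:48223966-48223986, plus strand) was 6.07 against 4.02. Mir145a, known from smooth muscle and fibroblasts, had the largest upward difference of a hairpin, 7.14 against 2.22, and its neighbour Mir143 was 7.05 against 5.45. The 8 measured hairpins of muscle microRNAs, among them Mir1a-1, Mir208a and Mir499, were all below the filter and differed by -0.62 to 0.18.

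Promoters were searched for known motifs in the 250 bases before the start of transcription, on both strands, in RefSeq's promoter table (GRCm38.p6). A promoter was found for 475 of the 633 genes at least 4-fold higher and 374 of the 494 at least 4-fold lower. A gene was counted once if any of its promoters had the motif, whereas the share of all promoters counts each promoter, so these units differ. The CArG box, bound by serum response factor, was present in 17 (3.58%) of the higher and 2 (0.535%) of the lower genes, against 1.47% of all 32851 promoters. The octamer ATTTGCAT, bound by OCT4 and other POU factors, was present in 2.53% and 5.35%, against 1.6% of all promoters. The AP-1 motif TGANTCA was present in 9.68% and 5.88%, against 6.75%. Over the 10725 genes that passed the filter and have a promoter in the table, the shares by gene were 1.47% (CArG box), 1.55% (octamer) and 5.72% (AP-1). The composite TTTGCATNACAATG, searched because an OCT4 and SOX2 site of this kind is known at Nanog, was found in 2 of all promoters and in 1 of the lower genes, Nanog. It overlaps the octamer motif in its letters. These matches are letters in a window and no measure of binding.

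Stretches of 120 bases around a match, all before the transcription start and with the motif in capitals, are shown for 2 higher and 2 lower genes, to let the place of the motif be seen.
Fhl2, CArG box: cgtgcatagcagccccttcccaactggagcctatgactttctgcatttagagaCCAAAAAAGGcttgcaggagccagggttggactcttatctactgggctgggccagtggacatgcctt
Myl9, CArG box: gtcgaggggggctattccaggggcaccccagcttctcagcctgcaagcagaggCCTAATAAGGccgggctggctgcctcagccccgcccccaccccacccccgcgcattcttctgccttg
Nanog, composite: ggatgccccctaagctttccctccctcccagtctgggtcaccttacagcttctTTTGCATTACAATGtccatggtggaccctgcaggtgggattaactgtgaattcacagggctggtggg
Zfp42, octamer: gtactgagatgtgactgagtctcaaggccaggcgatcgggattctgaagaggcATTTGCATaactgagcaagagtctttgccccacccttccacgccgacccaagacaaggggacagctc

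The Fhl2 stretch (chr1:43196791-43196910, minus strand) has its motif 86 bases before the start, and Fhl2 was 4.03 higher in the adult library. RefSeq's promoter table holds 2 promoters for Fhl2, and the most upstream start with a match was used. In Myl9, a regulatory myosin light chain of smooth muscle and non-muscle cells (chr2:156775250-156775369, plus strand), the motif ends 151 bases before the start, and the gene was 2.99 higher. Other higher genes with a CArG box were Lmcd1 (3.93), Egr2 (3.37), Fhl1 (2.30) and Cnn2 (2.25). The Nanog stretch (chr6:122707361-122707480, plus strand) has its motif 61 bases before the start, which was chosen as for Fhl2 from 2 promoters. In Zfp42, the stem cell marker REX1 (chr8:43307129-43307248, minus strand), the octamer lies 178 bases before the start, and the gene was 5.28 against 10.33. The 20 lower genes with an octamer also included the histone genes H2ac1 (-5.49), H2bc1 (-3.97) and H2bc12 (-2.45). Among higher genes the octamer was present at Col3a1 (4.87) and Tnc (3.42).

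In the other direction, the 25 genes with the largest downward differences were highest of the 6 in the iPS library in 23 cases, and the neonatal library was also 2-fold or more below iPS cells for all 25. Picking genes for a high iPS value favours such results, and the neonatal comparison shares the iPS library. Beside the pluripotency genes the 25 included the zinc finger genes Zfp640 (2.56 against 10.03), Zfp981 (3.39 against 10.34) and Zfp980 (3.15 against 8.51). Trh, the precursor of thyrotropin-releasing hormone, was 4.91 against 10.41, Apela, a ligand of the apelin receptor, 4.07 against 9.48, and Pipox, a pipecolic acid oxidase, 4.91 against 9.98. Bex1 was as high at day 7, 10.38 to 11.42, as in iPS cells, at 11.05, and low only in the adult (4.40) and neonatal (5.11) libraries. Epcam, also among the 25, had the same pattern, with 9.26 to 9.81 at day 7 and 8.91 in iPS cells, against 3.79 and 4.50. Fam169a had a like order, with 8.71 to 9.50 at day 7 and 10.38 in iPS cells, against 4.25 and 4.45 in the heart libraries.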

How the data were processed

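Each of 6 libraries, from 300 ng of total RNA, was hybridised to an Affymetrix Mouse Gene 2.0 ST array, per the labels' protocols. The authors deposited log2 values made with RMA, which corrects background, equalises the arrays and summarises probes, per the submitters' processing notes. Its version is not given in the sources used here, and total RNA differences cannot be seen after it. The table has 41345 probe sets and no detection values. The annotation names 1 gene for 23521 of them, several for 1814 and none for 16010. A gene's value is the mean of its probe sets (22180 genes, 1082 with more than 1). The difference is adult minus iPS library, with no test, and called genes passed the filter and a 2-fold or 4-fold difference. Precision is limited by the number of arrays.

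There were 69 gene lists, of whose 1095 entries 990 were measured. The members and lists were chosen with earlier results of these data known. Medians cover all measured members, counts only those that passed the filter. Named genes came from the 25 with the largest difference each way. Names of predicted or clone genes, histones, small RNAs, receptor segments and olfactory or vomeronasal receptors were left out there. Others were among up to 6 members of each list in each direction, or lay at the filter's edge. From the cell type, microRNA, sex-linked, pluripotency and imprinted lists any member could be named. Not every such gene is given, and those given were picked with their values known. Other genes given as examples were chosen after their values were seen. Counting was tested on simulated data. Alternatives were the filter, the brightest probe set, cyclic loess (limma 3.58.1 in R 4.3.3) and a shift to equal housekeeping medians. Python 3.11.15 with pandas 2.3.3 was used. Sequences are RefSeq's (GRCm38.p6), which held 426 of the 478 microRNA genes.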

Additional observations from a re-analysis of the deposited data

Results flagged for a closer look

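Probe sets without a gene name in the annotation entered no comparison. Of 16010 such probe sets 6743 passed the filter, and 163 of them were at least 4-fold higher in the adult library and 138 at least 4-fold lower. Their differences reached 7.24 upward and -7.35 downward, beside 7.62 and -7.70 for named genes. What they measure cannot be named here.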

How the results depend on the processing

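No paired analysis was possible because each group has 1 library, and for the same reason no replicate could be left out. With no filter, a filter at the 75th percentile (6.93), the brightest probe set or cyclic loess, 1437 to 1896 genes were at least 2-fold higher and 1474 to 2056 lower, and 582 to 654 and 420 to 520 at least 4-fold. The shift to equal housekeeping medians moved the counts to 5604 higher and 581 lower at 2-fold, 90.61% of them higher against 48.16% as deposited, and to 1580 and 209 at 4-fold. All 448 listed genes called 2-fold apart kept their direction under the brightest probe set and cyclic loess. Of them 446 and 442 were still 2-fold apart. The housekeeping shift adds 0.88 to every difference, so no called gene could change direction under it. It is larger than the median gene-by-gene difference of the housekeeping genes, -0.31. With that shift 374 of the 448 were still 2-fold apart, and every call lost was of a lower gene. List medians moved by less than 1.5-fold under the brightest probe set and cyclic loess, and all 69 moved by more under the shift. Over members on no other list 4 list medians moved by 1.5-fold or more, to 2.66 for fibroblast identity, 0.46 for monocyte-derived macrophages, 0.86 for leucine-rich proteoglycans and 1.49 for matricellular genes. Over members that passed the filter 8 did. The table has no detection values. As a guide, the 95th percentile of olfactory receptor genes was 5.08 in the adult and 4.92 in the iPS library. In the adult library 17 of 28 contractile, 17 of 18 fibroblast, 17 of 20 macrophage and 15 of 20 blood endothelial genes exceeded it. So did 2 of 11 T and NK cell, 1 of 7 B cell and 3 of 10 neutrophil genes.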

Other observations

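Families of genes named alike were chosen after their values were seen, so their number and direction are a description. Over all genes that passed the filter 14.1% were at least 2-fold lower and 13.1% higher. A gene that passed the filter through 1 library alone is higher in that library by construction, and many family members passed in that way. Of 296 zinc finger genes named Zfp that passed the filter, 58 (19.6%) were at least 2-fold lower in the adult library and 8 (2.7%) higher. Of 37 histone genes measured 24 passed and 18 were lower. Of 16 nucleoporin genes, which build the nuclear pore, 11 were lower, with Nup210 at 5.07 against 7.52 and Nup133 at 7.33 against 9.47. Of 14 Platr genes measured, noncoding RNAs described in pluripotent cells, 12 passed and 10 were lower, Platr10 at 3.45 against 8.21. Of 29 Pramel genes measured 10 passed and 8 were lower, with Pramel19 at 4.08 against 9.16. The median over all 29 was -0.46. Of 69 mitochondrial ribosomal protein genes 12 (17.4%) were lower, a share near that of all genes, and 0 higher, and the family median of -0.58 turns positive under the housekeeping shift. Near-identical copies within these families may share probes.

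Other families had more higher than lower genes. Of 35 protocadherin genes measured 12 passed, and the median over all 35 was 0.88. Of those that passed 10 were higher and 0 lower, among them Pcdhb17 (6.80 against 3.09), Pcdh7 (7.91 against 4.33) and Pcdh19 (7.97 against 4.76). Of 18 ADAMTS protease genes measured 12 passed and 8 were higher, led by Adamts5, Adamts6 (9.17 against 5.14) and Adamts12 (9.28 against 5.33). Of 9 p200 interferon-inducible genes measured 3 passed. These were Ifi202b, Ifi204 and Ifi205, at 6.95, 6.46 and 7.98 against 2.94, 2.53 and 5.20. Tnfrsf26 and Tnfrsf23, decoy-type receptors of the TNF family, were 8.90 and 9.87 against 4.52 and 5.63.

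Of 458 X-linked genes that passed the filter 21.8% were at least 2-fold lower and 13.8% higher, beside 13.8% and 13.1% of 13265 autosomal genes, and the medians were -0.06 for both. Of the 633 genes at least 4-fold higher 461 were on no list, and of the 494 at least 4-fold lower 407.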
